A study of Homo sapiens with 2 samples.

Results

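The genes examined here encode the factors of cytosolic translation elongation and 2 proteins tied to them: EEF1A1, EEF1B2, EEF1D, EEF1G, EEF2, TPT1 and EEF1E1, together with AP002990.1, an annotated gene that overlaps EEF1G. These 8 genes were taken by name from 16645 annotated genes with a read, and they hold 1139 of the 237608 transcript models in the deposited table. The set was chosen by its read counts per gene, model and category in both libraries, which were known beforehand, so these values are a description, and the tests below add no independent support to the choice. The RNA came from GM12878, a human B cell line immortalized by Epstein-Barr virus, and was sequenced directly on nanopores, each strand being read from its 3′ end. The 2 libraries are replicates 1 and 2 of a single group with no treatment named, and the labels do not say whether they came from separate cultures.

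In each round of elongation, eEF1A bound to GTP brings an aminoacyl-tRNA to the ribosome, and eEF2 then moves the tRNAs and the mRNA on by a codon. After GTP hydrolysis, eEF1A is recharged by the eEF1B complex, in which EEF1B2 and EEF1D are the nucleotide exchange subunits and EEF1G is a scaffold that binds them. TPT1, the translationally controlled tumor protein, binds eEF1A and eEF1B, and EEF1E1 is a small subunit of the multi-tRNA synthetase complex with homology to EEF1G. The mRNAs of eEF1A, eEF1B subunits, eEF2 and TPT1 are classical terminal oligopyrimidine mRNAs, whose translation follows mTOR activity. They are among the most abundant mRNAs of dividing cells.

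Replicate 1 held 1360368 reads and replicate 2 held 1510998, so that 1 read was worth 0.735 and 0.662 CPM, the count divided by the library total and scaled to 1e6. The known share of all reads was 55.9% in replicate 1 and 45.9% in replicate 2. B cell marker genes were read in both libraries, MS4A1 with 360 and 416 reads and CD79A with 936 and 1026, and 8 markers of other lineages had 0 to 16 reads each. Because a direct RNA read represents a strand, CPM is compared between genes here without division by length. Every test compares the reads of these 2 libraries and says nothing about conditions, and intervals cover counting error only.

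EEF1G lies on the minus strand of chromosome 11 (chr11:62559601-62574086, GRCh38), and AP002990.1 spans it and the upstream gene TUT1 (chr11:62559603-62591531). AP002990.1 is thus annotated as a readthrough of TUT1, a terminal nucleotidyltransferase, into EEF1G. Of its 3 annotated transcripts, AP002990.1-201 has 13 exons and AP002990.1-202 has 17, and both end in the same 8 splice junctions as EEF1G-201, the 10-exon mRNA of EEF1G. AP002990.1-201 differs from EEF1G-201 upstream of EEF1G exon 2, so the 30 bases around that point tell the transcripts apart. The windows below give the last bases before exon 2 in lower case and the first bases of EEF1G exon 2 (chr11:62572584-62572742) in capitals. In EEF1G-203 the bases before exon 2 come from the intron, which that model retains.
EEF1G-201, exon 1 to exon 2: accatggcggctgggACCCTGTACACGTAT
EEF1G-203, retained intron to exon 2: ctctttctcccatagACCCTGTACACGTAT
AP002990.1-201, exon 4 to exon 5: ccgttcttaaactggACCCTGTACACGTAT

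Downstream of that point the sequences are the same. The last junction is shown because every spliced read that ends in the EEF1G terminal exon crosses it, whichever gene it is listed under. Capitals mark the first bases of the terminal exon (chr11:62559601-62559837 in EEF1G-201).
EEF1G-201, exon 9 to exon 10: gagcttgcctttccgCTGAGTCCAGATTGG
AP002990.1-201, exon 12 to exon 13: gagcttgcctttccgCTGAGTCCAGATTGG

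EEF1A1 was by far the most abundant of the 8 genes, at 12755 CPM in the first library and 14640 CPM in the second, which averaged 13698 ± 1333 (SD, n = 2). It ranked 3 among all annotated genes by mean CPM. TPT1 followed with 3902 and 3926 CPM (rank 26), so EEF1A1 had 3.27 and 3.73 reads for each read of TPT1. EEF2, the translocase, had 2676 and 2946 CPM (rank 56), and EEF1A1 exceeded it 4.77-fold and 4.97-fold. In both libraries EEF1A1 and TPT1 kept the first and second places.

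The subunits of the eEF1B complex were not read at equal levels. EEF1G was read at 2477 CPM in replicate 1 but at 1912 CPM in replicate 2, and EEF1B2 had 1966 and 1933 CPM. The ranges of these 2 genes overlapped, and their means differed by 244 CPM against an SD of 399 CPM for EEF1G. EEF1D, the second exchange subunit, was lower at 548 and 499 CPM. For each EEF1D read there were 3.59 and 3.87 reads of EEF1B2 and 4.52 and 3.83 reads of EEF1G. AP002990.1 went from 842 CPM in replicate 1 to 1674 CPM in replicate 2, and its SD of 588 CPM was the widest relative to its mean of 1258 CPM. With the reads of AP002990.1 added to those of EEF1G, the pair came to 3319 and 3586 CPM, which placed it between TPT1 and EEF2. The pair had 6.05 and 7.19 reads for each EEF1D read, and 1.69 and 1.85 for each EEF1B2 read. The comparison of EEF1G with the other subunits thus depends on where the AP002990.1 reads are counted.

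EEF1E1 was the least abundant member, with 72 and 71 reads, or 52.9 and 47.0 CPM. EEF1D exceeded it 10.4-fold and 10.6-fold, and EEF1A1 had 241 and 312 reads for each of its reads. Apart from EEF1G and EEF1B2, no neighbours in the order of means had overlapping ranges.

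**Figure D1:**
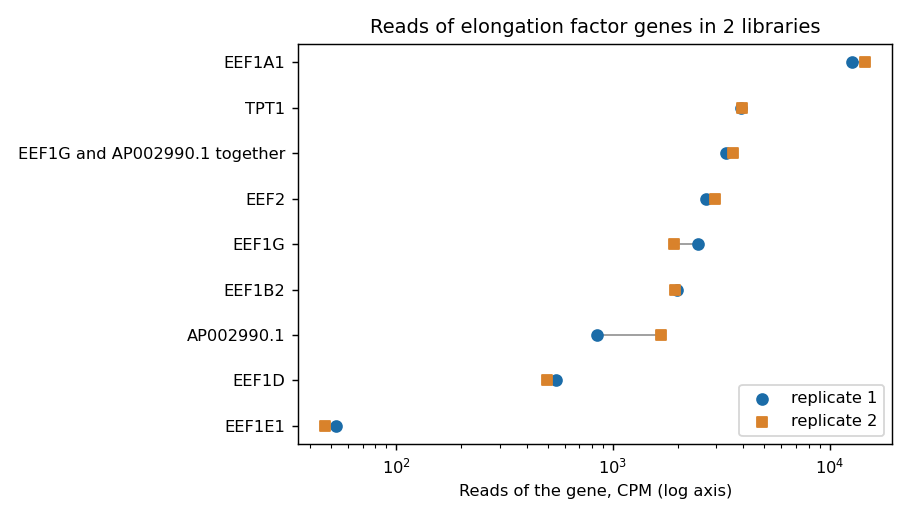
Reads per gene in CPM on a log axis, with circles for replicate 1, squares for replicate 2 and a line between them. EEF1A1 lies highest at 12755 and 14640 CPM and EEF1E1 lowest at 52.9 and 47.0 CPM, and AP002990.1 has the longest line, from 842 to 1674 CPM.

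Each gene's reads were compared between the libraries, given their totals, by a two-sided exact binomial test with Benjamini-Hochberg adjustment over the 10634 annotated genes with at least 10 reads. Of the 8 genes, 3 were higher and 1 was lower in replicate 2 at an adjusted p under 0.05. Over all genes tested, 5.05% passed (2.72% higher and 2.33% lower), and among the 356 genes with at least 1000 reads, 44.1% did, so the members' count of 4 of 8 is near that of abundant genes. AP002990.1 was 1.99-fold higher in replicate 2, a log2 ratio of 0.99 (95% exact interval 0.89 to 1.09, adjusted p of 1.50e-85, exact binomial test). Only 2.81% of the genes with at least 1000 reads had a larger absolute log2 ratio. EEF1G was lower in replicate 2 with a log2 ratio of -0.37 (-0.45 to -0.30, adjusted p of 6.58e-22, exact binomial test). EEF1A1 was 1.15-fold higher and EEF2 1.10-fold higher (adjusted p of 1.83e-39 and 9.80e-04, exact binomial tests).

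TPT1, EEF1B2, EEF1D and EEF1E1 did not pass. Their log2 ratios were 0.01 (-0.04 to 0.06), -0.02 (-0.10 to 0.05), -0.14 (-0.28 to 0.01) and -0.17 (-0.67 to 0.32). At 72 and 71 reads, the interval for EEF1E1 was wide enough to hold changes of the size seen in EEF1G.

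EEF1G and AP002990.1 differed in opposite directions, and they share exons. When the 2 genes were summed, an alternative chosen after seeing the data, the locus had 4515 reads in replicate 1 and 5418 in replicate 2, and the log2 ratio was 0.11 (0.05 to 0.17, adjusted p of 0.00461, exact binomial test). EEF1G alone was lower in replicate 2, and the sum was higher. AP002990.1 accounted for 25.4% of the locus in replicate 1 (95% Wilson interval 24.1 to 26.7%) and 46.7% in replicate 2 (45.4 to 48.0%), a mean of 36.0% ± 15.1 (SD, n = 2).

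None of the AP002990.1 reads belonged to a known model. All 1146 reads of replicate 1 and all 2529 of replicate 2 were in 8 suffix models, which are incomplete splice matches (ISM) that keep the 3′ part of an annotated junction chain. The Wilson interval of a known share of 0 reached 0.334% and 0.152%. Among the 1912 annotated genes with at least 100 reads in each library, 41 had no read in a known model, and AP002990.1 was the only gene with every read in ISM models. Others came close. CPB2 had no known read and 99.9% of its reads in ISM models in both libraries, and ATP6V1G2-DDX39B had no known read and 100% and 98.1%.

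The AP002990.1 models with 3 to 8 exons, 6 in number, held 1050 and 2237 reads. Because the last 9 exons of AP002990.1-201 and AP002990.1-202 carry the junctions of EEF1G-201, a suffix model of at most 8 exons has only junctions that EEF1G also has. The 2-exon model, with 96 and 291 reads, could instead match the short transcript AP002990.1-203. Its listed length of 362 bases equals the last 2 exons of EEF1G-201, whereas the last 2 exons of AP002990.1-203 come to 350 bases. The listed length equalled the summed last exons of EEF1G-201 in 5 of the 8 models.

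Of the reads listed under AP002990.1, 1 belonged to a model that extends upstream of EEF1G exon 2. The model ENCODEHT000393201, with 10 exons and 1610 bases, had 0 reads in replicate 1 and 1 in replicate 2, and its length is that of the last 10 exons of AP002990.1-201. Zero of 4515 reads at the locus allows a share of up to 0.0664% in replicate 1, counted over all reads there. A read that stops at or before exon 2 cannot show an upstream junction, so this share is no bound on readthrough. The full 10-exon chain of EEF1G-201 held 1667 reads in replicate 1. TUT1 itself had 23 and 22 reads. The table gives no coordinates of single reads, so the junction chains of ISM models were inferred from category, exon number and length.

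The most read AP002990.1 model was the 5-exon suffix ENCODEHT000390191, with 396 reads in replicate 1 and 609 in replicate 2. The 4-exon model had 221 and 558 reads, and the 3-exon model, with 112 and 434 reads, had the largest ratio of the models with reads in both libraries, 3.48-fold in CPM. The ratios of the models with 6, 7 and 8 exons were 1.72, 1.82 and 1.83. The models of 2 to 4 exons thus differed more between libraries than those of 5 to 8 exons, a difference for which no test was run.

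Laid side by side by exon number, the shared chain of EEF1G and AP002990.1 had its largest classes at 10 and 9 exons in both libraries. Together these classes held 3103 of 4515 reads in replicate 1 but a minority, 2495 of 5418, in replicate 2. EEF1G-201, with all 10 exons, held 36.9% of the reads of the locus in replicate 1 and 21.8% in replicate 2. EEF1G-203, the 9-exon model, held 31.8% and 24.3%. Its 8 junctions are the last 8 of EEF1G-201, so a read that stops short of exon 1 has the same junctions as one with the retained intron. From 8 exons down to 1, every class held a larger share of the locus in replicate 2, for example 8.77% and 11.2% at 5 exons and 2.48% and 8.01% at 3 exons.

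**Figure D2:**
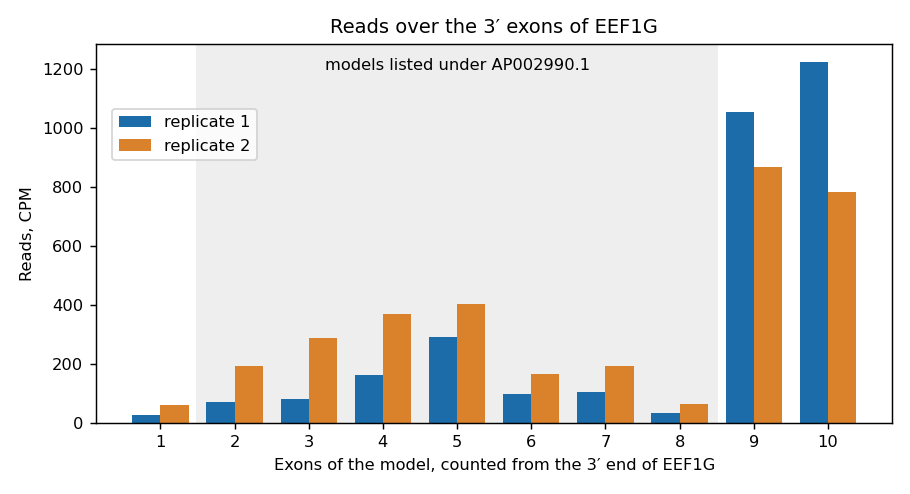
Reads in CPM by the number of exons of the model, for the last 10 exons of EEF1G, with replicate 1 in blue and replicate 2 in orange. The shaded classes of 2 to 8 exons are the models listed under AP002990.1, and the classes of 1, 9 and 10 exons are EEF1G models. Replicate 2 is higher from 1 to 8 exons and lower at 9 and 10 exons.

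EEF1G kept its own short suffix models too, but few reads went to them: 32 suffix models with 2 to 8 exons had 15 and 47 reads. Its single-exon model of 237 bases, the length of the terminal exon, had 35 and 92 reads. Prefix models, which keep the 5′ end, had 52 and 67 reads in EEF1G and none in AP002990.1.

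The category of the models was then compared over all 8 genes. A known model matches the junctions of an annotated transcript, NIC models join annotated splice sites in a new combination, NNC models use a splice site outside the annotation, and genomic models overlap a gene without matching its splicing. Known models held 66.5% of the members' reads in replicate 1 and 43.1% in replicate 2. In each of the 7 genes with known models the share was lower in replicate 2, and all 7 passed Fisher's exact test adjusted over 6340 genes. Over all genes tested, 27.1% passed, 26.9% lower and 0.268% higher. Among the genes with at least 1000 reads 73.6% passed, 72.5% lower and 1.12% higher, so this count too is close to that of abundant genes. The median difference was -11.11 percentage points over the 8 genes and -8.62 over all genes tested.

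The known share of EEF1A1 was 65.4% (64.7 to 66.1%) in replicate 1 and 36.7% (36.0 to 37.3%) in replicate 2. It fell by 28.75 percentage points, the most of the 8 genes, and the p-value of Fisher's exact test was below the smallest number the software can hold. EEF2 fell by 23.44 points, from 37.2% to 13.8% (adjusted p of 3.18e-130, Fisher's exact test), and had the lowest known share of the 7 genes in both libraries. EEF1G had the highest share in both, with 92.1% and 86.4%, and the smallest difference, -5.74 points (adjusted p of 8.87e-12, Fisher's exact test). These shares of EEF1G leave out the suffix reads listed under AP002990.1.

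EEF1B2 had known shares of 89.9% and 78.0%, TPT1 of 76.8% and 68.2%, and EEF1D of 61.8% and 51.5%. EEF1E1 had 79.2% (68.4 to 86.9%) and 57.7% (46.2 to 68.5%), with an adjusted p of 0.0295 in Fisher's exact test. EEF1D stood out in NIC models, which held 14.1% and 14.3% of its reads over 82 models, against at most 3.22% in the other members. TPT1 was the only member with more than 2% of its reads in genomic models, 7.78% and 10.3%, nearly all in the 752-base single-exon model ENCODEHT000220839 with 412 and 607 reads.

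**Figure D3:**
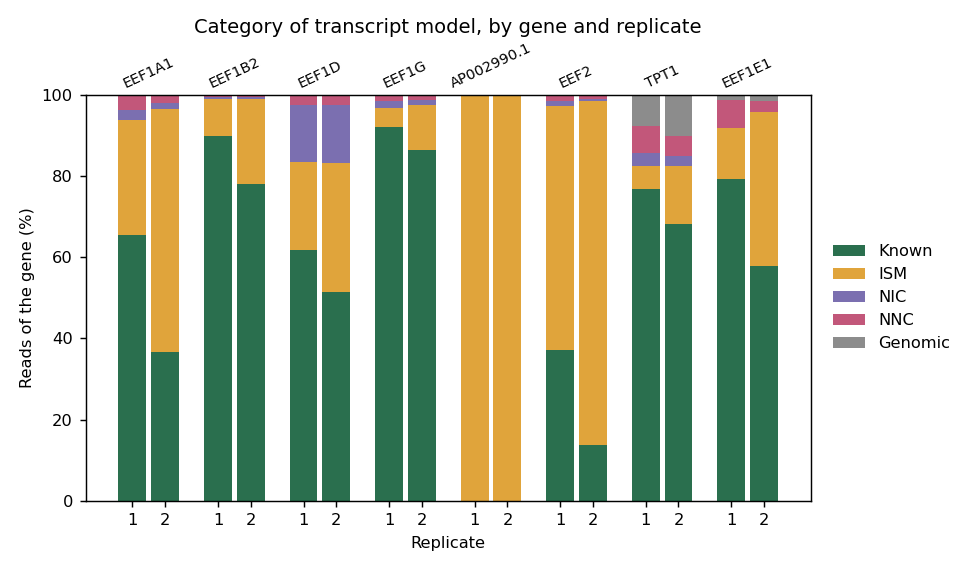
Stacked bars of the percent of reads of each gene by model category, replicate 1 left and replicate 2 right. The known part is lower in replicate 2 in all 7 genes that have one, and AP002990.1 consists of ISM reads in both libraries.

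EEF1A1 (chr6:73515750-73523797) had 339 models, of which 219 rested on a single read. EEF1A1-201, an 8-exon mRNA, held 9332 reads in replicate 1 and 5978 in replicate 2, which were 53.8% and 27.0% of the gene. EEF1A1-202, a 7-exon model annotated as running through the first intron of EEF1A1-201, had 2013 and 2106 reads. A read of EEF1A1-201 that stops short of its first exon has the same junctions, so these reads need not carry the intron. The third model by reads was the 5-exon ISM model ENCODEHT000622696, with 1157 and 3042 reads, a log2 ratio of 1.24. ISM models that count as both suffix and prefix were frequent in EEF1A1, with 17.5% and 35.5% of its reads. Models with 8 exons held 59.7% of its reads in replicate 1 and 30.1% in replicate 2, and single-exon models 2.70% and 9.32%.

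EEF2 (chr19:3976056-3985469) has the most exons of these genes in its most read known model: EEF2-201 has 15 exons and 3164 bases. EEF2-201 took 1339 and 592 reads (36.8% and 13.3% of the gene), nearly all of those in known models. The single-exon ISM model ENCODEHT000318777 of 696 bases had 554 and 1247 reads, so that in replicate 2 it was read more often than EEF2-201, and the 4-exon model ENCODEHT000318774 had 223 and 432. The mean number of exons of the models read was 9.47 in replicate 1 and 6.12 in replicate 2, the largest change of the 8 genes. The gene as a whole was 1.10-fold higher in replicate 2 while its 15-exon mRNA had a log2 ratio of -1.33.

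EEF1B2 (chr2:206159585-206162928) and TPT1 (chr13:45333471-45341370) have fewer exons, and larger shares of their reads were in the most read known model. EEF1B2-203, with 6 exons, held 86.0% and 70.1% of the reads of its gene (2300 and 2049 reads). Its suffix models ENCODEHT000573275, with 5 exons, and ENCODEHT000573313, with 4, followed with 148 and 279 and with 48 and 193 reads. TPT1-212, also with 6 exons, held 72.5% and 56.8% (3849 and 3367 reads), and an NNC model of the same exon number, ENCODEHT000220871, had 298 and 252 reads. The annotated TPT1-212 is 4735 bases long, and the length of a known model is that of the annotation, not of the reads. The mean exon number of the reads went from 5.84 to 5.38 in EEF1B2 and from 5.38 to 4.90 in TPT1.

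EEF1D (chr8:143579697-143599541) was spread over more known models than the other subunits, with 14 known models. EEF1D-202, with 8 exons, took 37.5% and 29.6% of the gene (280 and 223 reads). The 3-exon EEF1D-229 had 47 and 65 reads, and the 7-exon suffix model ENCODEHT000550690 had 71 and 86. In EEF1E1 (chr6:8073360-8102578), EEF1E1-201 had 41 and 26 reads, EEF1E1-205 had 12 in each library, and the single-exon model ENCODEHT000547505 had 6 and 16.

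**Figure D4:**
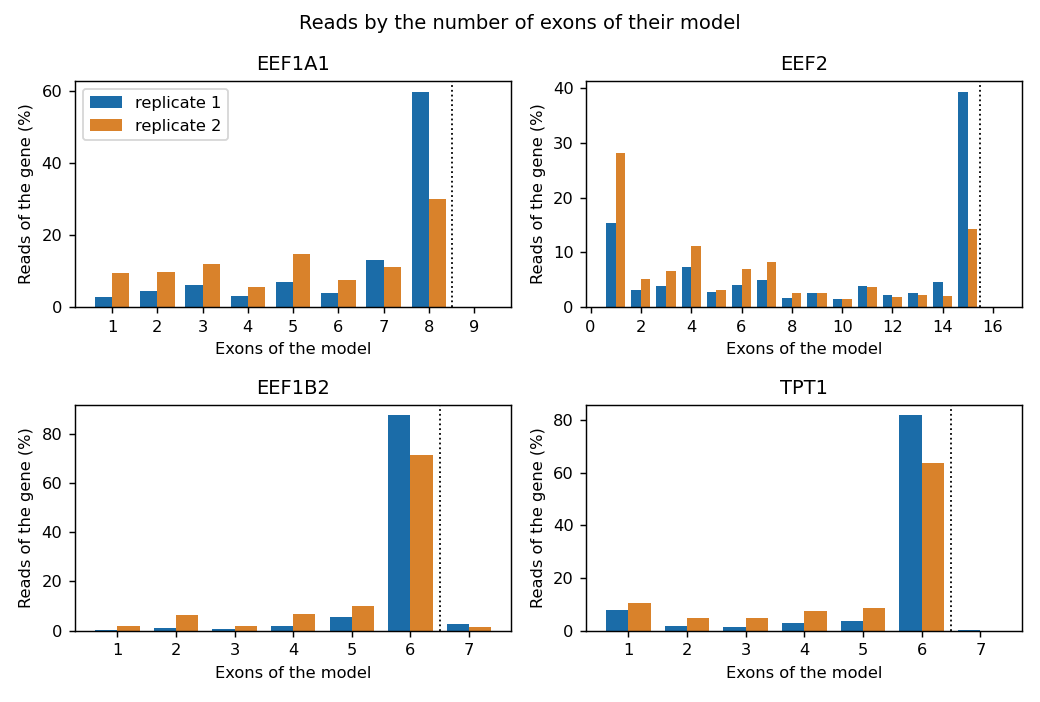
Percent of the reads of EEF1A1, EEF2, EEF1B2 and TPT1 by the number of exons of their model, with replicate 1 in blue and replicate 2 in orange and a dotted line after the exon number of the most read known model. The class at that line falls from replicate 1 to replicate 2 in each gene, from 59.7% to 30.1% in EEF1A1 and from 39.3% to 14.2% in EEF2.

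Reads of known models were themselves divided between full and 3′ chains. Several known models of these genes lack the first or more junctions of the most read model and share its remaining junctions to the end. A read of the most read model that stops short has the same junctions, so counts of these models do not show that an intron was read. For TPT1 the first junction shows where the annotated models part. TPT1-202 starts in exon 1 and reads through the intron, and from exon 2 (chr13:45340712-45340785, capitals) on it has the junctions of TPT1-212.
TPT1-212, exon 1 to exon 2: gggacctcatcagccACGATGAGATGTTCT
TPT1-202, retained intron to exon 2: ctgtgtatccggcagACGATGAGATGTTCT

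The share of the most read known model among known reads was lower in replicate 2 in all 7 genes that have one, and the difference passed in 5 of them (Fisher's exact test, adjusted over 1878 genes). Over all genes tested, 12.5% passed, 11.0% lower and 1.44% higher. With a minimum of 100 known reads in each library, 165 of 629 genes passed. The rate was thus higher among genes with more known reads. TPT1-212 went from 94.4% to 83.2% of known reads (adjusted p of 2.47e-56), EEF1A1-201 from 82.2% to 73.7% (1.78e-43), EEF1B2-203 from 95.6% to 89.9% (1.38e-12), EEF1G-201 from 53.7% to 47.3% (5.28e-05) and EEF2-201 from 98.8% to 96.6% (0.0183), all in Fisher's exact test. EEF1D-202 and EEF1E1-201 differed by -3.26 and -8.52 points and did not pass (adjusted p of 0.718 and 0.748).

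Known models whose junctions are a 3′ part of those of the most read model took more of the known reads in replicate 2 in all 5 genes tested, a measure added after the models had been seen. It divides the same known reads as the share above, largely as its complement, so its tests are not separate support. For the most read model and for these models, the differences were -6.39 and 6.39 points in EEF1G and -11.12 and 11.11 in TPT1. They were -8.51 and 8.24 in EEF1A1, -5.73 and 6.69 in EEF1B2, and -3.26 and 7.85 in EEF1D. Over the 971 genes with such 3′ models, 27.2% passed Fisher's exact test, all of them higher in replicate 2, and the median difference was 6.89 points. No rate for abundant genes alone was computed for this measure. TPT1-202 had 105 and 389 reads and TPT1-206 had 63 and 227, and the models of this kind in TPT1 together rose from 4.12% to 15.2% of known reads (Fisher's exact test, adjusted p of 2.51e-65). EEF1B2-211, a 2-exon model, had 29 and 180 reads, a log2 ratio of 2.46. TPT1-206 and EEF1B2-211 are annotated as retained introns, as EEF1G-203 is, and they were named after their values were seen. In EEF1A1 the share rose from 17.7% to 26.0%, in EEF1G from 46.3% to 52.7% and in EEF1D from 14.3% to 22.2% (adjusted p of 3.17e-41, 2.77e-05 and 0.0193).

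The direction of a gene between the libraries depended on which models were counted. With known models only, scaled to the known reads of each library, the median log2 ratio of all genes moved from 0.01 to -0.26. EEF1A1 then had -0.35 in place of 0.20 and EEF2 had -1.01 in place of 0.14, and both were past the threshold in the opposite direction. Relative to the median of all genes, EEF1A1 was close to it and EEF2 far below it. TPT1, with a log2 ratio of 0.12, became higher in replicate 2 (adjusted p of 0.00186, exact binomial test). EEF1G stayed lower (-0.18) but lay above the median of all genes, and AP002990.1 had no reads left.

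**Figure D5:**
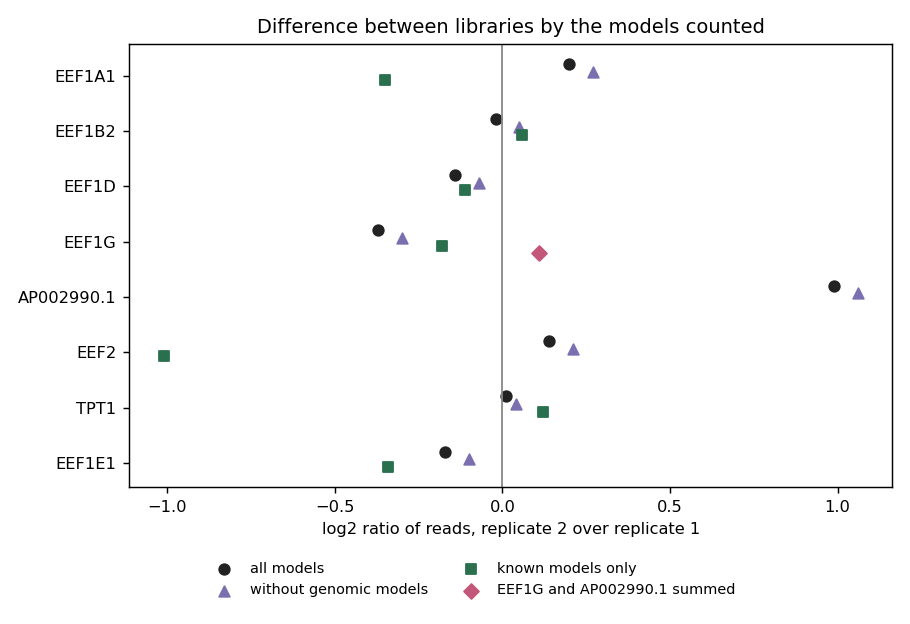
Log2 ratio of reads, replicate 2 over replicate 1, for each gene with all models, without genomic models, with known models only, and with EEF1G and AP002990.1 summed. EEF1A1, EEF2 and EEF1G lie on opposite sides of 0 depending on the reads counted, at 0.20 and -0.35, 0.14 and -1.01, and -0.37 and 0.11.

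Processed pseudogenes, intronless copies of an mRNA in the genome, also received reads. EEF1A1P5 (chr9:133019486-133020874) had 2261 and 2951 reads, 1662 CPM in replicate 1, which is more than EEF1D. Its annotated sequence of 1389 bases differs from the coding sequence of EEF1A1-201 at 4 positions, an identity of 99.7%. No 60-base window of the coding sequence holds more than 1 difference, and the first with 1 is shown with that base in capitals.
EEF1A1-201, bases 854 to 913: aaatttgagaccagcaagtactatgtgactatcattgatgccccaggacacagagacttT
EEF1A1P5-201, bases 235 to 294: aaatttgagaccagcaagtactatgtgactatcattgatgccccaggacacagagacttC

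With so few differences, the division of reads between EEF1A1 and EEF1A1P5 is uncertain. Of 18 pseudogenes with a member's symbol, 7 had at least 10 reads and 4 of them were higher in replicate 2, beside 2.72% higher and 2.33% lower over all genes tested. These were EEF1A1P5 (log2 ratio of 0.23), EEF1A1P6 (9 and 36 reads), EEF1B2P3 (61 and 134 reads) and EEF1B2P6 (6 and 48 reads), adjusted p between 8.04e-07 and 0.00820 in exact binomial tests. None was lower. EEF1B2P3 is 99.0% identical to EEF1B2-203 over its 678 bases.

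Outside the pseudogenes, the lists of other pathway genes held 38 genes. Of the 33 tested for total reads 1 passed, beside 5.05% of all genes tested. It was GSPT1, which encodes the release factor eRF3 (174 and 136 reads, log2 ratio of -0.51, 0.0438 as adjusted p in the exact binomial test). EIF5A, whose hypusinated protein aids peptide bond formation, had 1773 and 1803 reads and did not pass (adjusted p of 0.114, exact binomial test), nor did GTPBP1, a relative of eEF1A, with 59 and 71 reads. EEF1A2, the paralog of EEF1A1 typical of muscle and neurons, had 0 reads, and 0 reads still allow 2.21 and 1.99 CPM. EEF2K, the kinase that inhibits eEF2, had 26 and 23 reads. The 7 genes of diphthamide synthesis, which make the modified histidine of eEF2, had 7 to 86 reads each. DPH5 had the most, with 77 and 86, and DPH2 had 64 and 65.

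Among the mitochondrial elongation factors, TUFM had 496 and 529 reads and TSFM 73 and 63. VARS, the valyl-tRNA synthetase that associates with eEF1B, had 245 and 253 reads, and AIMP2, a scaffold of the multi-tRNA synthetase complex, 109 and 108. Of the methyltransferases, EEF1AKMT4 had 61 and 55 reads and METTL13, which methylates eEF1A, 56 and 50. DHPS and DOHH of hypusine synthesis had 76 and 83 and 32 and 25 reads, and the release factor gene ETF1 had 193 and 182. At the neighbouring genes, EEF1E1-BLOC1S5, the annotated readthrough of EEF1E1, had 0 and 1 read, BLOC1S5 had 3 and 5, and TPT1-AS1 had 3 and 7. In known share, 7 of 25 list genes tested outside the pseudogenes were lower in replicate 2 and 0 were higher. Lower shares were called in 26.9% of all genes tested. The median difference was -16.86 points in the list genes and -8.62 over all genes tested.

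Genes with the most similar division of reads over the 5 categories in both libraries were found by Euclidean distance of the 10 percentages among 1911 other genes with at least 100 reads in each library. Nearest to EEF1A1 were NDUFA9, ACOT7 and TUFM, at distances of 5.21, 5.64 and 5.70 percentage points. Nearest to EEF1G were RPL30, RPS16 and COX14, at 1.95, 2.29 and 2.91, with the suffix reads listed under AP002990.1 left out of its shares. Nearest to AP002990.1 were CPB2 (0.144), CANX (1.96) and ATP6V1G2-DDX39B (2.69), of which the last is also an annotated readthrough gene, with 120 and 158 reads.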

How the data were processed

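The deposited file holds unnormalized counts of reads for each transcript model, 1 column for each replicate. The submitters' processing notes name minimap2 and hg38, and the model categories are those of TALON, per the file headers; versions, annotation release and read filters are not given in the sources used here. Identifier, exon number and length of all 23533 known models matched GENCODE release 29 (GRCh38), which gave positions, junctions and, from its transcript sequences, the printed bases. Gene counts add up every model listed under a gene. With 1 library on each side, no model with replicate spread could be fitted.

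Genes with at least 10 reads were tested with exact binomial tests. Known shares (at least 20 reads per library) and shares of the most read known model (at least 20 known reads) were tested with Fisher's exact test, using scipy 1.17.1 and Benjamini-Hochberg adjustment over all genes, with a threshold of 0.05. Log2 ratios add 0.5 reads to each count. Scaling alternatives used edgeR 4.0.16 (TMM) and DESeq2 1.42.0. The tests were checked on simulated data. Intervals are Wilson or exact at 95%, and a count of 0 allows 3 reads. Members and lists were chosen with earlier results of these data known. Genes and models named are the 8 members, the 3 models with most reads of each, list genes past the threshold and the 2 most abundant of each list, and the 3 nearest genes by category; others are named after their values were seen.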

Additional observations from a re-analysis of the deposited data

How the results depend on the processing

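No paired analysis was possible because the libraries form a single group; leaving out a replicate returns the other one's value. The summed level of the 8 genes was 26398 CPM, 25220 to 27576 with a replicate left out, and 14329 with known models only. Genes differing between libraries numbered 537, and 1042 (324 higher and 718 lower) with known models only. In the pathway lists, pseudogenes included, the count was 5, then 9. Genes differing in the share of the most read known model numbered 234 of 1878 tested, and 1338 of 3254 tested with known and ISM models. The known share of the members was 54.8% (43.1 to 66.5% with a replicate left out). The AP002990.1 share of the locus was 36.0% (25.4 to 46.7%), and 0 with known models only, which it lacks.

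Of 85 comparisons of a member's value under an alternative, 75 kept direction and side of the threshold, 3 passed it and 7 reversed. Reversals were EEF1A1 (-0.35) and EEF2 (-1.01) with known models only, EEF1G summed with AP002990.1 (0.11), EEF1B2, not past the threshold, with known models only (0.06) and without genomic models (0.05), and TPT1, not past the threshold, under TMM (-0.0015) and DESeq2 scaling (-0.01). The cause was not tested.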
